A study of Arabidopsis thaliana with 9 samples.

Results

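The genes carried on the plastid genome were examined in germinating seeds of *Arabidopsis thaliana* that lack either of a pair of NAC transcription factors. Members were the genes whose identifier starts with ATCG, the prefix of plastid loci, and 133 of the 33557 genes in the authors' deposited table carried it. Whole seeds (20 mg) were imbibed on plates of 0.6% agarose and taken for RNA after 12 h. The 9 samples were 3 biological replicates each of the Col-0 wild type (WT), of the loss-of-function mutant *nac1L*, labelled KO1, and of the loss-of-function mutant *nac25*, labelled KO2. The labels name no allele and no number of lines for either mutant, and all seeds were of the same age after imbibition.

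The table gives the authors' Cuffdiff comparisons of the 3 genotypes and no value per library or per genotype. Neither depth nor replicate spread can be read from it. Each member is described by its log2 fold between genotypes. A gene is called higher or lower where the deposited q-value is at or below 0.05. Of the targeted genes, *NAC1L* stood at log2 -4.61 in *nac1L* and *NAC25* at log2 -3.97 in *nac25* (authors' deposited table). Both also lay below WT in the other mutant, *NAC25* at log2 -2.66 in *nac1L* and *NAC1L* at log2 -1.89 in *nac25* (authors' deposited table). The reads were too few to test any of these 4 values. Levels of seed markers cannot be read from folds, but for 4 of 7 storage protein and oleosin genes the authors' status was an excess of reads in at least 1 comparison, and for no plastid member.

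The plastid genome of a land plant encodes core subunits of the photosynthetic complexes, the large subunit of Rubisco, a bacterial-type RNA polymerase, part of the plastid ribosome, and the ribosomal and transfer RNAs. The nucleus encodes the remaining subunits, the sigma factors and associated proteins that the bacterial-type polymerase needs, and a phage-type polymerase that transcribes many housekeeping genes. Plastids of a dry seed are small and lack developed thylakoids, and transcription by both polymerases resumes as the seed takes up water. Most plastid genes are transcribed with their neighbours, and most plastid transcripts lack long poly(A) tails. The sources used here do not say whether polyadenylated RNA was selected.

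The members divided into 88 protein-coding genes and reading frames, 37 transfer RNA genes and 8 ribosomal RNA genes. A test was made for 69 members in each mutant against WT and for 68 between the mutants, and 62 members had a test in all 3 comparisons. The untested members all had too few reads by the authors' status. They included all 37 members of the inverted repeat, a stretch that the plastid genome holds in 2 copies. The log2 fold of 34 of these 37 was exactly 0 in all 3 comparisons in the authors' deposited table, among them *rpl2*, *rpl23*, *ycf2*, *ndhB* and *rps7* in both copies. A 0 in every comparison without a test gives no measured fold, and the reads of identical copies cannot be assigned to either copy. The other 3 were ribosomal RNA genes.

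Outside the inverted repeat 13 members had no value, namely 12 transfer RNA genes and *psbT*, a small photosystem II subunit. Of the 73 protein-coding members there, 62 had a test in *nac1L* against WT and 65 in *nac25* against WT. The untested members with a finite fold were few, 10 in *nac1L* and 9 in *nac25*. They included *ndhF* and *ndhE* of the NDH complex, *ccsA* of cytochrome assembly, *rps16* and the full-length copy of *ycf1*. In the plot of folds in gene order, the stretches without a test are marked by ticks.

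**Figure D1:**
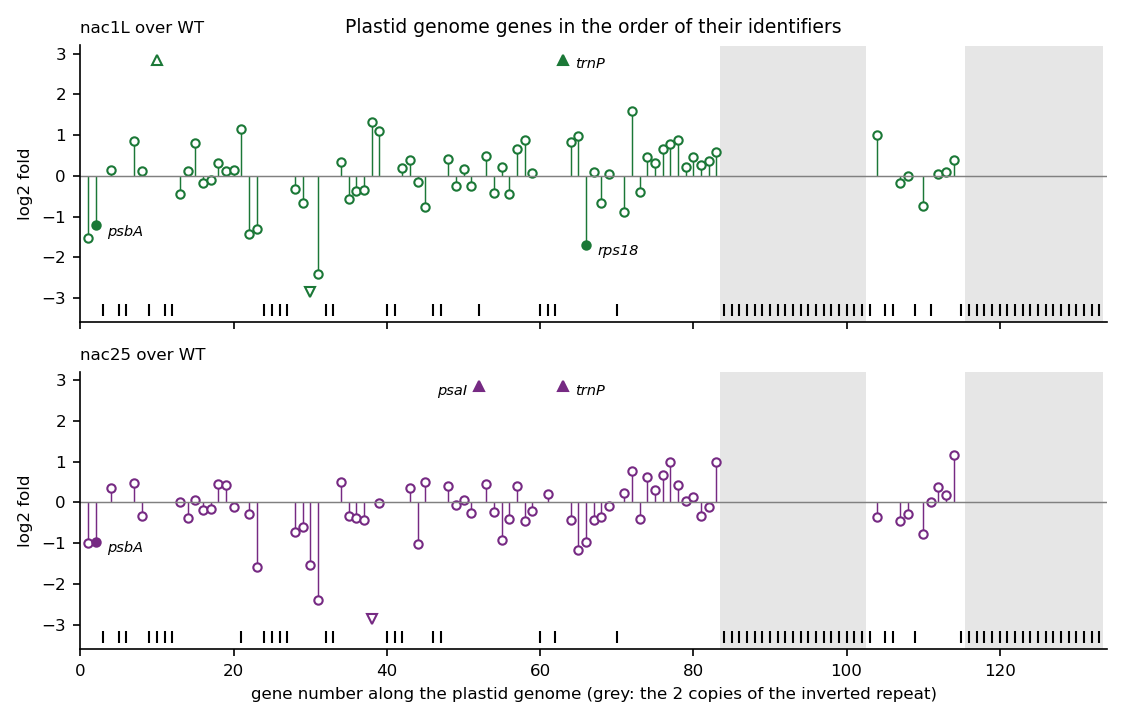
Deposited log2 fold (vertical axis) of the plastid genes in the order of their identifiers (horizontal axis, gene number), for *nac1L* over WT (top) and *nac25* over WT (bottom). Filled points passed the authors' test and open points did not, triangles mark tested genes listed at 0 in WT (up) or in the mutant (down), black ticks mark genes without a test, and grey bands are the copies of the inverted repeat, where all 37 members were without a test.

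Only a few plastid genes differed between either mutant and WT by the authors' test. In *nac1L*, 3 of 69 tested members were called, *psbA* and *rps18* lower and *trnP* higher, against 28.5% of all tested genes (9.62% higher and 18.9% lower). In *nac25* the count was also 3 of 69, *psbA* lower and *psaI* and *trnP* higher, against 39.0% of all tested genes (6.25% higher and 32.8% lower). A member share of 4.35% in either mutant was thus well under that of all tested genes. The remaining 66 tested members in each comparison did not pass, which does not show that they were equal to WT. In RNA from whole seeds, changes in the number of plastids, in the cells that hold them and in the RNA per plastid cannot be told apart.

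*psbA* was the protein-coding member called in both mutants. It encodes the reaction-centre protein of photosystem II that is replaced most often in the light. Its level fell 2.33-fold in *nac1L* (log2 -1.22) and 1.95-fold in *nac25* (log2 -0.96), each with q = 0.000463, the floor of the q-values in the authors' deposited table. The mutants themselves did not differ in it by the authors' test (log2 0.25, q = 0.346, authors' deposited table).

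*rps18*, which encodes a protein of the small ribosomal subunit, was 3.25-fold lower in *nac1L* (log2 -1.70, q = 0.0337, authors' deposited table). Its log2 fold of -0.98 in *nac25* did not pass (q = 0.141, authors' deposited table), and the direct comparison of the mutants did not either (log2 0.72, q = 0.374, authors' deposited table). A difference between the mutants in *rps18* was thus not shown. The call in *nac1L* was lost when folds were centred on the median of nuclear genes (q = 0.0513).

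The remaining calls concerned members listed at 0 in WT, for which no fold can be given. *trnP*, a transfer RNA gene for proline, was listed at 0 in WT and called higher in *nac1L* (q = 0.00853) and in *nac25* (q = 0.000463) in the authors' deposited table. *psaI*, a small subunit of photosystem I, was listed at 0 in WT and in *nac1L* and called higher in *nac25* (q = 0.0342, authors' deposited table). An exact 0 can be a failed estimate in such a table, and both are short genes. The gene after *trnP*, *psaJ*, and the gene after *psaI*, *ycf4*, did not pass in either mutant.

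An unadjusted p at or below 0.05 was reached by 6 members in *nac1L*, or 8.70% of the tested members against 39.1% of all tested genes, and by 5 in *nac25*, or 7.25% against 48.6%. Beside the called genes these included, in the authors' deposited table, *psaB* (log2 -0.57) and *trnS.2*, listed at 0 in *nac1L*. In *nac25* the authors' deposited table gave *ndhK* (log2 -1.02, q = 0.0923) and *petA* (-0.92, q = 0.0919).

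Few calls stood beside folds that were not small. The median size of the log2 fold was 0.41 over 66 tested members with a finite fold in *nac1L* and 0.28 over all tested genes. In *nac25* these medians were 0.40 and 0.38. Folds of at least 2 were found for 11 members in *nac1L* (16.7%, against 9.15% of all tested genes) and for 8 in *nac25* (12.1%, against 14.3%). Of these large folds 2 of 11 and 0 of 8 were called, whereas 75.8% and 81.2% of all tested genes with such folds were. The largest fold among them, that of the short gene *psbZ* in *nac1L* (log2 -2.40, q = 0.404, authors' deposited table), did not pass. The depth behind any member is unknown.

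**Figure D2:**
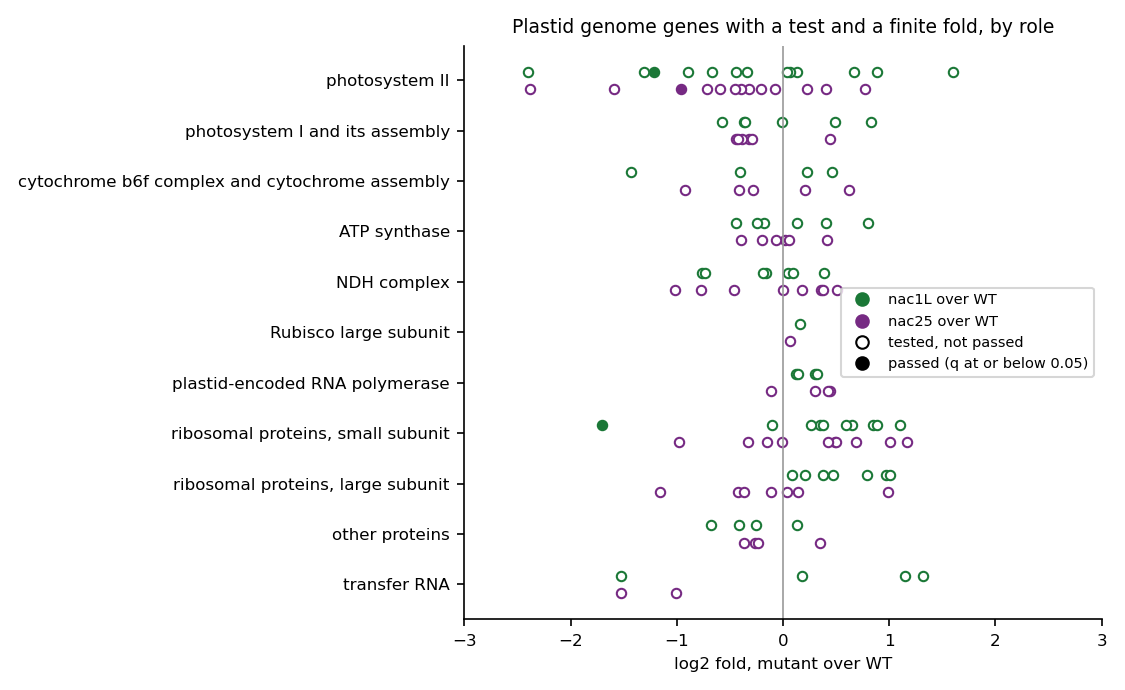
Deposited log2 fold over WT (horizontal axis) of each tested plastid gene with a finite fold, by role (vertical axis), for *nac1L* (green) and *nac25* (purple). Filled points passed at a q of 0.05, which of the genes plotted were *psbA* in both mutants and *rps18* in *nac1L*.

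The photosystem II genes lay mostly below 0 in *nac25*, as did all tested genes, and on both sides of 0 in *nac1L*. Of 13 tested members *psbA* alone was called in either mutant, and the median log2 fold was -0.33 in *nac1L* and -0.40 in *nac25*, where the medians over all tested genes were -0.07 and -0.27. In *nac25* 10 of the 13 lay below 0 and in *nac1L* 7 of 13. Among all tested genes with a finite fold 13096 of 18085 lay below 0 in *nac25* and 10298 of 18179 in *nac1L*. *psbD*, the other reaction-centre protein, had log2 folds of -0.33 and -0.71 in *nac1L* and *nac25* in the authors' deposited table. The chlorophyll-binding core antenna gene *psbB* had log2 folds of 0.03 and -0.07 there (authors' deposited table). *psbH*, a small core subunit, was the highest member at 1.60 in *nac1L* and 0.77 in *nac25* in the authors' deposited table, and *psbZ* the lowest at -2.40 and -2.38. Of the reaction-centre pair, only *psbA* passed. *psbN*, which lies on the strand opposite to *psbT* and *psbH*, had log2 folds of -0.89 and 0.22 in the authors' deposited table. The libraries are stranded per the labels, but the sources used here do not say whether counting used the strand.

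Photosystem I genes were also mostly below 0, without a call among the genes with a finite fold. The paired core proteins encoded by *psaA* and *psaB* had log2 folds of -0.36 and -0.57 in *nac1L* and of -0.39 and -0.32 in *nac25* in the authors' deposited table. Their q-values lay between 0.129 and 0.306 in *nac1L*. The assembly factor gene *ycf3* had log2 folds of -0.36 and -0.44, and *ycf4*, also an assembly factor, 0.49 and 0.45 in the authors' deposited table. The median over 6 members was -0.18 in *nac1L* and -0.35 in *nac25*, where the medians over all tested genes were -0.07 and -0.27. In *nac1L* 4 of the 6 lay below 0 and in *nac25* 5. Of all tested genes with a finite fold 10298 of 18179 and 13096 of 18085 lay below 0, so a place below 0 was not particular to photosystem I.

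The cytochrome b6f complex, the ATP synthase and the NDH complex, which carries electrons around photosystem I, gave no call in either mutant. This count of 0 was among the authors' Cuffdiff calls. At an unadjusted p at or below 0.05 there were 0 members of these groups in *nac1L* and 2, *ndhK* and *petA*, in *nac25*. Tested in *nac1L* and *nac25* were 4 and 5 cytochrome genes, 6 and 6 ATP synthase genes and 7 and 8 NDH genes. Among all tested genes 28.5% and 39.0% were called, and 39.1% and 48.6% had an unadjusted Cuffdiff p at or below 0.05. Of 6 ATP synthase genes 3 lay above and 3 below 0 in each mutant, with medians of -0.03 and -0.02. *atpB*, which encodes the catalytic beta subunit, had log2 folds of -0.24 and -0.07 in the authors' deposited table. *petB*, the cytochrome b6 gene, had log2 folds of -0.41 and -0.42 in the authors' deposited table, and *petD*, which encodes its partner subunit, 0.46 and 0.63. *ndhC* and *ndhK*, which overlap in the plastid genome, had log2 folds of 0.51 and -1.02 in *nac25* in the authors' deposited table, and reads in their overlap cannot be assigned to either. *rbcL*, the gene of the large subunit of the carbon-fixing enzyme Rubisco, lay close to 0 in both mutants (log2 0.16, q = 0.701 in *nac1L* and log2 0.06, q = 0.896 in *nac25*, authors' deposited table).

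Most genes of plastid gene expression lay above 0 in *nac1L*, and *rps18* was the only tested ribosomal protein or polymerase gene called in either mutant against WT. All 4 genes of the plastid-encoded RNA polymerase were above 0 in *nac1L*, from 0.13 for *rpoC1* to 0.32 for *rpoA*, and none passed. In *nac25* the log2 folds ran from -0.11 for *rpoB* to 0.44 for *rpoC2* in the authors' deposited table. Of 17 tested ribosomal protein genes 15 lay above 0 in *nac1L*, with a median of 0.47, and 9 in *nac25*, with a median of 0.03. Among all tested genes with a finite fold 43.4% and 27.6% lay above 0, with medians of -0.07 and -0.27. Both ribosomal protein medians thus lay above the median of all tested genes. The highest were *rps4* (2.15-fold, q = 0.17) and *rpl32* (log2 1.01, q = 0.549) in *nac1L* in the authors' deposited table. In *nac25* the highest were *rps15* (log2 1.17, q = 0.36) and *rpl36* (0.99, q = 0.455) and the lowest *rpl33* (-1.16, q = 0.376) in the authors' deposited table. Over the 37 tested genes of the photosynthetic complexes with a finite fold in *nac1L* the median was -0.16, with 17 above 0. These genes share operons and reads, so the counts are a description of the table and were not tested.

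The remaining protein genes gave no call. *accD*, a subunit of the acetyl-CoA carboxylase of fatty acid synthesis, had log2 folds of -0.25 and -0.26, and *clpP*, a protease subunit, -0.68 (q = 0.138) and -0.36 in the authors' deposited table. *matK*, an RNA splicing factor encoded inside the *trnK* intron, had log2 folds of 0.14 and 0.35 in the authors' deposited table. *cemA*, an envelope membrane protein, had log2 folds of -0.42 and -0.24 (authors' deposited table). None of these 4 passed in either mutant against WT in the authors' Cuffdiff test, and none had an unadjusted p at or below 0.05. Of all tested genes 28.5% were called in *nac1L* and 39.0% in *nac25*, and 4 genes are too few to set against these shares.

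The ribosomal and transfer RNA genes were poorly measured. None of the 8 ribosomal RNA genes had a test. Log2 folds were listed for 3 of them, -1.57 in *nac1L* and -1.06 in *nac25* for the first copy of *rrn16*, -1.65 and -1.39 for the first copy of *rrn23*, and -0.44 and -0.21 for its second copy, in the authors' deposited table. The copies are identical in their mature sequence, so these values do not stand for separate genes. Of 37 transfer RNA genes 7 had a test in *nac1L* and 4 in *nac25*, and *trnP* alone was called. Altogether 12 members were listed at 0 in at least 1 genotype, 9 of them transfer RNA genes and the others *psbI*, *petL* and *psaI*, small subunits of photosystem II, the cytochrome b6f complex and photosystem I. The zeros followed no single genotype. *trnQ*, *trnD*, *trnT.1* and *psbI* were listed at 0 in both mutants but not in WT, *trnP* and *trnS.1* in WT alone, *trnS.2* in *nac1L* alone, and *trnF* and *trnS.3* in *nac25* alone.

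Neighbouring genes that are commonly transcribed together often had folds of unlike sign. Of 12 such clusters with at least 2 tested members, 9 held both signs in *nac1L* and 10 in *nac25*. The median distance between the highest and lowest log2 fold in a cluster was 1.03 and 1.02. Among all tested members with a finite fold 60.6% and 42.4% lay above 0, so mixed signs would be common in any such grouping. Most of these folds did not pass, and whether signs were mixed more or less than in other groupings was not tested. The cluster from *rpl22* to *rpoA*, with ribosomal protein genes and a polymerase gene, was the largest. All 8 of its members lay above 0 in *nac1L* and 6 of 8 did in *nac25*, with no call. The cluster of *psbD*, *psbC* and *psbZ* lay below 0 in both mutants. *psaA* and *psaB* lay below 0 and *rps14*, which follows them, above 0 (log2 0.34 in *nac1L* and 0.49 in *nac25*, authors' deposited table). In the pair *rpl33* and *rps18* the log2 folds were 0.97 and -1.70 in *nac1L* in the authors' deposited table, of which only *rps18* passed. *psbC*, *rps14* and *rpl22* were named for their place, after their values were seen.

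Between the mutants, 2 of 68 tested members were called, against 12.3% of all tested genes (0.609% higher and 11.7% lower). An unadjusted p at or below 0.05 was reached by 5 of the 68, or 7.35%, against 24.2% of all tested genes. *petA*, which encodes cytochrome f of the cytochrome b6f complex, fell 2.21-fold from *nac1L* to *nac25* (log2 -1.14, q = 0.028, authors' deposited table), with log2 folds over WT of 0.22 in *nac1L* and -0.92 in *nac25*. *psaI*, listed at 0 in *nac1L*, was called higher in *nac25* (q = 0.0342, authors' deposited table). Neither call held when p-values were adjusted within this comparison alone, and that of *petA* was also lost after centring on nuclear genes (q = 0.0937). Without a finite fold, *psaI* could not be centred. *rpl33* (log2 -2.13, q = 0.0987) and *rps4* (-1.11, q = 0.131) were lower in value in *nac25* without passing, and *ndhC* (1.27, q = 0.172) higher, in the authors' deposited table. The comparisons of each mutant with WT share the WT libraries. Of 63 members with a finite fold and a test in both, 23 lay above 0 in both, 23 below 0 in both, 14 above 0 in *nac1L* alone and 3 above 0 in *nac25* alone.

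The distribution of plastid folds was set beside those of nuclear and mitochondrial genes. In *nac1L* the median log2 fold was 0.13 for plastid members, -0.07 for nuclear genes and 0.48 for mitochondrial genes, and 60.6%, 43.2% and 79.7% of the tested genes with a finite fold lay above 0. In *nac25* the medians were -0.13, -0.27 and 0.28, and 42.4%, 27.4% and 71.7% lay above 0. The plastid median thus lay above the nuclear median and below the mitochondrial median in both mutants, and relative to the nuclear median it was 0.19 in *nac1L* and 0.14 in *nac25*. Among mitochondrial genes 12 of 61 tested were called in *nac1L* (19.7%) and 6 of 61 in *nac25* (9.84%). The difference between the 3 genomes was not tested, because genes of an organelle genome are not independent of each other.

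**Figure D3:**
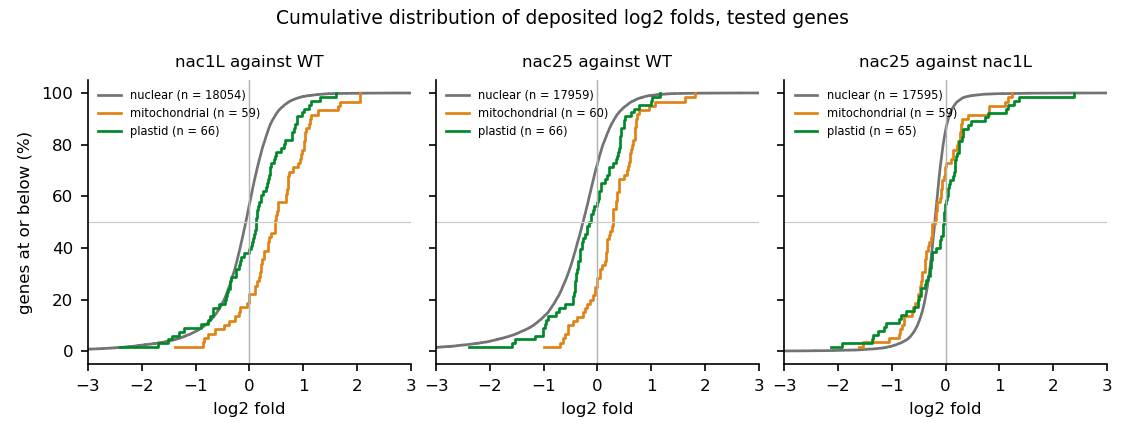
Cumulative share of tested genes (vertical axis, percent) at or below a deposited log2 fold (horizontal axis) for nuclear, mitochondrial and plastid genes in the 3 comparisons. The curves cross the 50% line at the medians, which for plastid genes were 0.13 in *nac1L*, -0.13 in *nac25* and -0.03 between the mutants.

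Nuclear genes whose products transcribe the plastid genome or complete its complexes were often called lower, and a difference in that share from plastid genes was not tested. Of 38 such genes in 6 lists, 37 had a test. In *nac1L* 21 were lower and none higher, against 18.9% lower among all tested genes. In *nac25* 28 were lower and none higher, against 32.8%. After centring on the median of nuclear genes these counts of lower genes were 17 in *nac1L* and 14 in *nac25*, of 37 tested. Of all tested genes 27.7% and 30.5% were called after centring, in either direction. The median log2 fold was -0.49 in *nac1L* and -0.64 in *nac25*.

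The sigma factors, which direct the plastid-encoded polymerase to promoters, were divided. *SIG2* (log2 -0.61, q = 0.000463) and *SIG6* (-0.63, q = 0.000463) were lower in *nac1L* in the authors' deposited table. *SIG1* (-0.49), *SIG4* (-1.08), *SIG3* (0.26) and *SIG5* (0.34) did not pass there (authors' deposited table). In *nac25* *SIG6* (-1.06), *SIG2* (-0.80), *SIG1* (-0.86) and *SIG4* (-1.48) were lower, and *SIG3* (-0.07) and *SIG5* (0.16) did not pass, in the authors' deposited table. Of the 3 phage-type polymerase genes none was called in either mutant against WT by the authors' Cuffdiff test. At an unadjusted p at or below 0.05 there were 0 in *nac1L* and 1, *RPOTP*, in *nac25*. Of all tested genes 28.5% and 39.0% were called, and 3 genes are too few to set against these shares. The plastid enzyme gene *RPOTP* had log2 folds of 0.02 and -0.26, *RPOTMP*, which serves both organelles, 0.12 and -0.24, and the mitochondrial *RPOTM* 0.05 and -0.13 in the authors' deposited table.

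Of 12 genes for proteins bound to the plastid-encoded polymerase, needed for its activity in developing chloroplasts, 8 were lower in *nac1L* and 11 in *nac25*. Among all tested genes 18.9% and 32.8% were called lower. *PAP9* did not pass in either mutant, and *PAP1*, *PAP4* and *PAP7* did not pass in *nac1L*. *PAP12* was the lowest (log2 -1.29 in *nac1L* and -1.47 in *nac25*, q = 0.000463 for each, authors' deposited table). *PAP3* (log2 -0.56 and -0.64), *PAP2* (-0.54 and -0.84) and *PAP8* (-0.52 and -0.65) were also lower in both mutants in the authors' deposited table. After centring on nuclear genes 2 of these 12 genes, *PAP2* and *PAP12*, and 2 sigma factor genes, *SIG2* and *SIG6*, were called lower in *nac25*. Of all tested genes 30.5% were called after centring there, in either direction. *PAP3* (q = 0.0759), *PAP5* (0.0882), *PAP8* (0.0738) and *PAP11* (0.104) lost their calls but stood at the smallest deposited Cuffdiff p (5e-05). Centring takes the standard error from fold and p, which at that floor gives an upper limit. Whether these calls would hold cannot be told. *GLK1* and *GLK2*, activators of nuclear photosynthesis genes, were lower in both mutants (log2 -1.04 and -1.19 for *GLK1*, -0.53 and -0.78 for *GLK2*, authors' deposited table). *GUN1*, a plastid protein of signalling to the nucleus, was lower in *nac25* (log2 -0.44, q = 0.000866, authors' deposited table), a call lost on centring (q = 0.303).

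Nuclear subunits were called lower in Rubisco, the ATP synthase, photosystem I, the cytochrome b6f complex and photosystem II. Of the plastid subunits of these complexes *psbA* of photosystem II was the only one called lower against WT. *PSBO1*, a protein of the oxygen-evolving complex of photosystem II, was lower in both mutants (log2 -0.59, q = 0.0296 and log2 -0.88, q = 0.00226, authors' deposited table), calls lost on centring (q = 0.0692 and 0.0545). *PSBP1*, of the same complex, was lower in *nac25* (log2 -0.48, q = 0.0287, authors' deposited table), also lost on centring (q = 0.46). Both genes were chosen after their values were seen, and both are among the 38 nuclear genes counted above. *RBCS1A*, a gene of the Rubisco small subunit, was lower by 1.53-fold in *nac1L* (log2 -0.61) and 2.22-fold in *nac25* (log2 -1.15) in the authors' deposited table, where *rbcL* had log2 folds of 0.16 and 0.06. *RBCS2B* (log2 -1.74 and -4.05) and *RBCS3B* (-2.06 and -3.01) were likewise lower in both mutants (authors' deposited table). The Rubisco small subunit genes are close copies, so reads could have been divided between them. For the ATP synthase, the nuclear *ATPC1* (log2 -1.96 and -2.59) and *ATPD* (-1.18 and -1.70) were lower in both mutants in the authors' deposited table, and none of the 6 plastid subunit genes was called. *PSAD1* of photosystem I (log2 -1.26 and -1.57) and *PETC* of the cytochrome b6f complex (-1.08 and -1.13) were likewise lower in the authors' deposited table. *CLPP5*, *CAC2* and *CAC3*, partners of *clpP* and *accD*, did not pass in either mutant. The difference between a nuclear and a plastid subunit was not tested, since no value per library is given.

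**Figure D4:**
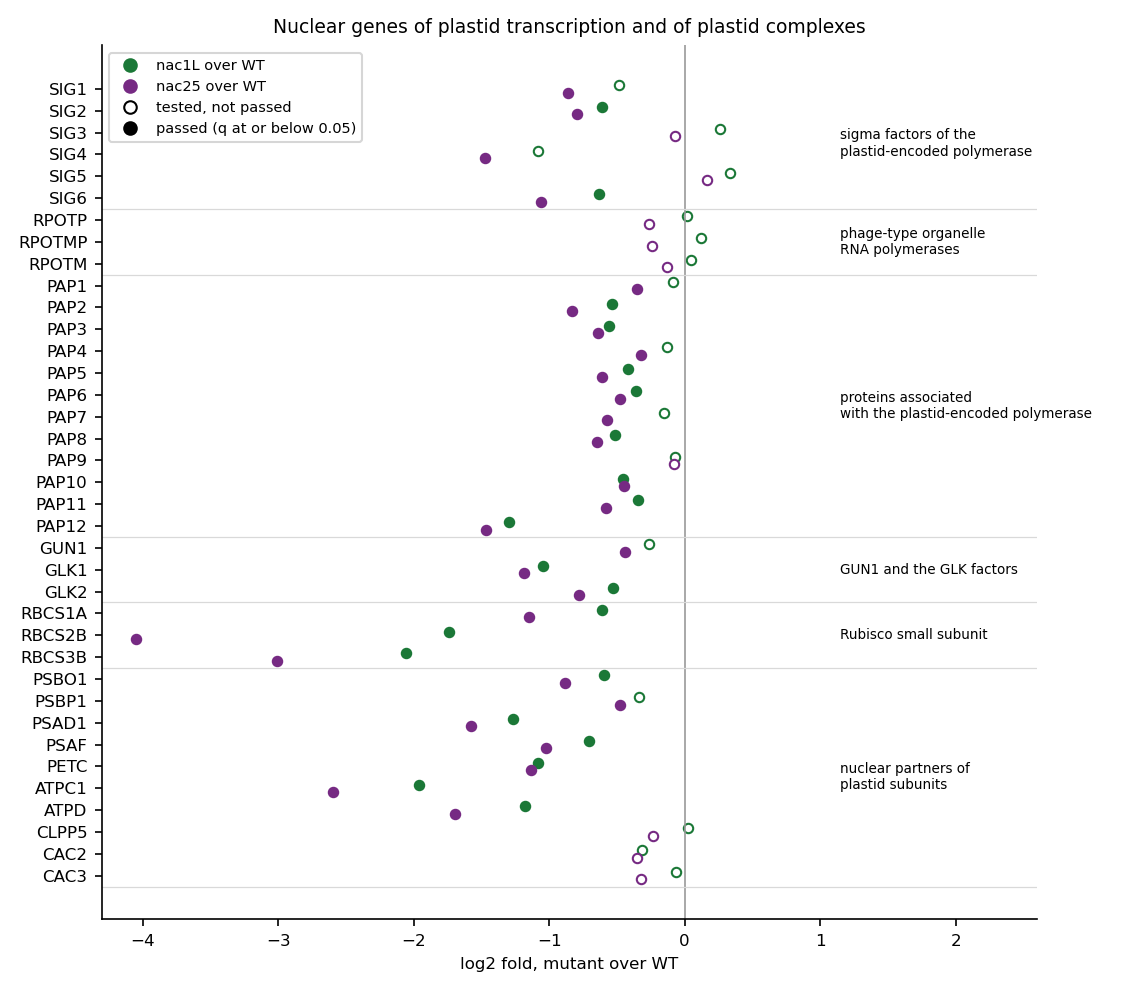
Deposited log2 fold over WT (horizontal axis) of 37 tested nuclear genes of plastid transcription and of plastid complexes (vertical axis, by list), for *nac1L* (green) and *nac25* (purple). Filled points passed at a q of 0.05, which were 21 genes in *nac1L* and 28 in *nac25*, all of them lower (17 and 14 after centring on nuclear genes).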

How the data were processed

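RNA of 9 seed samples was sequenced from stranded libraries, per the labels. The submitters' processing notes name TopHat2 2.1.0, Cuffdiff 2.2.1.3 and FastQC 0.11.5. For build, annotation, library normalization and read selection, the entry is: not given in the sources used here. Per the file headers, the authors' table has a log2 fold, an unadjusted p-value, a q-value and a test status for 33557 genes in 3 comparisons. The fold was read as second over first genotype. Cells reading as infinity or as a spreadsheet error (10 and 14 for the members) were taken as a genotype at 0. Recomputing the deposited q-values by Benjamini-Hochberg over the 54131 tests matched them within 5.27e-07, so members were judged by an adjustment over the whole table.

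The test was the authors' own, at q at or below 0.05. Counts and medians were computed from it in Python 3.11.15 (pandas 2.3.3, numpy 2.4.6, scipy 1.17.1), and figures drawn in matplotlib 3.10.9. Names came from the table and, for 129 of 133 members, were matched to RefSeq TAIR10.1. Members, roles, clusters and partner lists were chosen with earlier results of these data known. Named genes were the called members, the highest and lowest of each role, members listed at 0 and a fixed set of core genes, and up to 4 called genes with the largest folds per partner list plus all sigma factor and phage-type polymerase genes. The alternatives were other q thresholds (0.01 and 0.1), adjustment within a comparison, leaving out mitochondrial genes, and centring on the median of nuclear genes. For the centring, p was recomputed from the standard error that fold and p imply, for genes with a finite fold only. The centring was run on simulated data whose true changes were larger than any member or partner fold that lost its call on centring. The loss of calls at smaller folds was thus not covered by the simulation. No sequence is printed, since no genome build is named for the table. The design had provided for counts or levels per library, and the authors' q-value was used since the table gives comparisons. The result of 1 member is not reported here.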

Additional observations from a re-analysis of the deposited data

Results flagged for a closer look

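*petA* was picked out because the effects of the 2 mutants relative to WT differed by the authors' test of the difference itself. Its log2 fold was -1.14 in *nac25* against *nac1L* (q = 0.028, authors' deposited table). Over WT it was 0.22 in *nac1L* (q = 0.697) and -0.92 in *nac25* (q = 0.0919), and neither passed. The call between the mutants was lost on adjustment within the comparison (q = 0.0752) and on centring (q = 0.0937). *psaI* was picked out for the same reason, with q = 0.0342 between the mutants in the authors' deposited table and a listing at 0 in WT and in *nac1L*. Its call between the mutants was also lost on adjustment within the comparison.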

How the results depend on the processing

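*psbA* kept its call in *nac1L* under every alternative run, and in *nac25* under all but the requirement of a 2-fold change. Some alternatives could not remove it. A looser q keeps every call, and *psbA* is protein-coding and lies outside the inverted repeat. At a q of 0.1, 5 members were called in *nac1L*, 5 in *nac25* and 4 between the mutants. Of all tested genes 35.5%, 45.4% and 19.8% were called at that threshold. Between the mutants 0 members were called at a q of 0.01, against 4.36% of all tested genes. When p-values were adjusted within the comparison 0 members were called, against 5.44% (5 of 68 members had an unadjusted Cuffdiff p at or below 0.05). After centring on nuclear genes 1 member, *psaI*, was called, against 4.28%. Centring left the p-values of genes listed at 0 in a genotype unchanged, so the calls of *psaI* and *trnP* were not put to it. Shares this small leave room for few calls among 68 members, so the counts of 0 say little. Centring moved the plastid median to 0.14 in *nac25* and to 0.17 between the mutants, and 23 of 197 member folds, none of them called, changed sign. The additional call of *ndhI* in *nac25* after centring came from its fold near 0, which implies too small a standard error. Among the nuclear partner genes 24 calls over the 3 comparisons were lost on centring, 13 at a q of 0.01 and 5 on adjustment within a comparison. Some of the calls lost on centring stood at the smallest deposited p, where the implied standard error can be too large. Counts restricted to protein-coding members or to those outside the inverted repeat were within 1.5 times the reported ones. Leaving out replicates, level filters and pseudocounts could not be run without values per library. No paired analysis was possible because the table holds no value per sample. Unknown depth limits every uncalled member.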
